A study of Mus musculus with 2 samples.

Results

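Dkk4-positive keratinocytes of control embryonic mouse skin were taken as the cells of the control library that passed an epidermal gate and held at least 1 unique molecular identifier (UMI, a tag that marks 1 captured transcript) of Dkk4. The gate asked for at least 1000 detected genes, at most 10% mitochondrial UMIs, under 5% hemoglobin UMIs, at least 20 UMIs of the keratins Krt5, Krt14 and Krt15 together, under 20 UMIs of the collagens Col1a1, Col1a2 and Col3a1 together, and 0 UMIs of Myod1, Cdh5, Ptprc and Sox10. The cells were thus chosen by their own counts of Dkk4, keratin and collagen genes. The gate held 376 control cells. Of these, 56 were Dkk4-positive (14.9%, exact Clopper-Pearson 95% interval 11.5 to 18.9) and 320 had 0 Dkk4 UMIs, out of 25475 barcodes in the 2 libraries of the study. The same gate held 994 cells of the mutant library, and 0 of them were Dkk4-positive.

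The study crossed Axin2CreER mice, whose tamoxifen-inducible Cre follows the Wnt-responsive Axin2 gene, with Rosa-lox-STOP-lox-SmoM2YFP mice. SmoM2YFP joins an always active Smoothened, the transducer of Hedgehog signals, to a fluorescent tag, and is silent until Cre removes the stop cassette. Flank skin of embryos at day E13.5 was digested with trypsin and live cells were sorted with DAPI. There was 1 library per group, each from 2 to 3 pooled embryos, so embryo-to-embryo spread cannot be seen and no p-value is given. The control title names the SmoM2YFP allele alone, the mutant title describes a dermal SmoM2YFP mutant, and the labels used here state neither the Cre genotype nor the tamoxifen treatment of either pool. Control and mutant embryos were littermates, processed side by side and run in 1 lane. The genotype field of each library says the opposite of its title, and groups follow the titles throughout. UMIs of the eYFP feature under the gate numbered 1 in the control and 9 in the mutant library.

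Hair follicle placodes are local thickenings of the embryonic epidermis from which hair follicles form. Wnt signalling through beta-catenin is required for them, and ectodysplasin, which acts through its receptor Edar and the transcription factor NF-kappaB, reinforces and patterns them. Placode cells send fibroblast growth factors and other ligands to the dermis below, and also secrete inhibitors that limit how far placodes spread, among them Dkk4, a Wnt antagonist.

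The control library held 109629368 UMIs in 13566 barcodes and the mutant library 73809828 UMIs in 11909 barcodes, of which 12028 and 8480 passed the gene, mitochondrial and hemoglobin limits. Gated cells had a median of 10923.5 UMIs in the control and 8422 in the mutant library. The libraries shared 48 barcode sequences, and 0 of the 56 Dkk4-positive cells were among them. Marker lists of other lineages stood out in single barcodes. Of the 56 cells, 1 held 157 melanoblast UMIs, 1 held 75 immune UMIs and 1 held 32 muscle UMIs, and no other held more than 2 UMIs of any of these lists. These 3 mixed barcodes held 1, 2 and 4 Dkk4 UMIs, and Scrublet called 2 of them doublets. Among the 320 Dkk4 = 0 cells, 1 held 49 muscle UMIs. Where these 4 barcodes move a gene or a list count past a limit, the value without them is given too. Another Dkk4-positive barcode held 100 UMIs of the dermis list, with the next at 21 and a median of 5, and its part in the results was not tested; Dkk4 = 0 cells reached 91. The other lists were at like levels in Dkk4-positive and Dkk4 = 0 cells. Dermis stood at 614 and 628 CPM (UMIs per 1000000), endothelium at 26.4 and 30.0 CPM with 4 of its 6 genes at 0 in the former, glia at 16.7 and 14.5 CPM with 3 of 7 at 0, Merkel cells at 6.94 and 6.43 CPM with 6 of 9 at 0, and mural cells at 2.78 and 3.21 CPM with 4 of 6 at 0. Dermal condensate genes stood at 33.3 and 16.6 CPM, with 6 of 12 at 0 in the Dkk4-positive cells and at most 4 UMIs in a cell, and their part in the results was not tested.

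Dkk4 (ENSMUSG00000031535, GRCm38 chr8:22624043-22627547, plus strand, protein coding) chose the cells, and its values are description. The 56 cells held 1 to 14 Dkk4 UMIs with a median of 2. A single UMI was found in 22 cells, 2 in 10 cells, 3 in 6 cells and 4 in 2 cells, while 10 cells held 5 to 9 and 6 cells held 10 or more. The 10 highest cells carried 105 of the 207 Dkk4 UMIs. Most of the transcript thus came from a minority of the cells, and many cells sat at the 1-UMI threshold. Total UMIs ran from 7449 to 27912 with a median of 11832, against a median of 10767 in Dkk4 = 0 cells. With each gated cell thinned to 5000 UMIs, which left out 1 control and 17 mutant cells, 37 of 375 control cells (9.87%, 7.04 to 13.3) and 0 of 977 mutant cells held Dkk4. By 3 counts, the 0 of 994 unthinned mutant cells allows a share of cells with a Dkk4 UMI of up to 0.302%, and the Clopper-Pearson upper bound is 0.370%. All intervals in the text cover counting error only.

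Dkk4 outside the gate lay mainly in cells of low keratin count. After the first 3 limits, 107 control cells held Dkk4. Of those outside the gate, 42 had under 20 keratin UMIs, 8 had at least 20 of both keratin and collagen, and 1 was stopped by the 4 excluded genes alone. In dermal cells, taken as at least 20 collagen and under 20 keratin UMIs, 11 of 7326 control cells held Dkk4 (0.150%, 0.0750 to 0.269, median depth 7478.5 UMIs). These 11 cells held 79 Dkk4 UMIs in all and a median of 12 keratin UMIs (range 0 to 19). Whether their Dkk4 is free RNA, mixing with keratinocytes or expression was not tested. Just inside the keratin limit, at 20 to 24 UMIs, 24 of 125 cells were Dkk4-positive, and just outside it, at 15 to 19 UMIs, 16 of 99 were. Their median Dkk4 counts were 3 and 3.5 UMIs. The keratin limit therefore cuts through the Dkk4-positive cells, as the plot of Dkk4 against keratin UMIs shows.

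**Figure D1:**
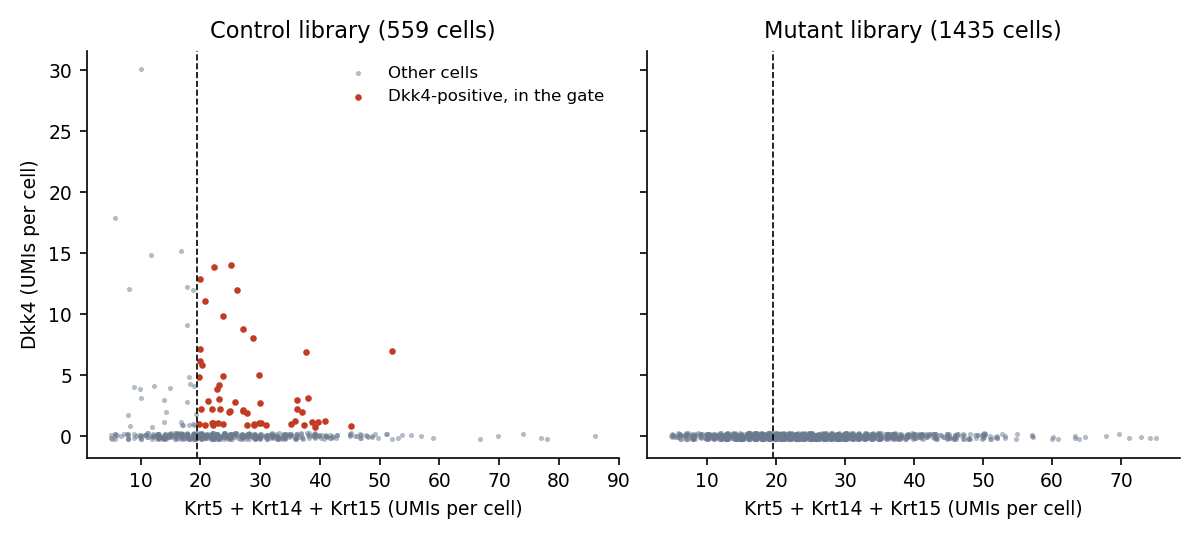
Dkk4 UMIs (vertical axis) against summed Krt5, Krt14 and Krt15 UMIs (horizontal axis) per cell, with small random shifts, for control and mutant cells with at least 5 keratin UMIs, under 20 collagen UMIs and 0 UMIs of the 4 excluded genes; the dashed line is the limit of 20 keratin UMIs. The 56 Dkk4-positive cells in the gate are red, control cells to the left of the line reach 30 Dkk4 UMIs, and all mutant cells lie at 0.

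Bmp2, a secreted bone morphogenetic protein of early placodes, set the Dkk4-positive cells apart, while Lef1 did not. Bmp2 counts in the 56 cells ranged from 0 to 6 UMIs with a median of 1, and in the 320 Dkk4 = 0 cells from 0 to 3 with a median of 0. Summed over cells, Bmp2 stood at 73.6 CPM against 18.2 CPM, a ratio of 4.04 (95% interval 2.77 to 5.87), with UMIs in 33 of 56 and 50 of 320 cells. The 2 sets of cells overlapped, since both held cells with 0 to 3 UMIs. At 5000 UMIs per cell, Bmp2 was found in 37.5% of Dkk4-positive cells (24.9 to 51.4), 6.90% of Dkk4 = 0 cells (4.37 to 10.3) and 6.89% of dermal cells in the draw made here. Averaged over all possible draws the first 2 shares were 28.8% and 8.0%, and without thinning 58.9% and 15.6%. The share in Dkk4 = 0 cells was close to that in dermal cells. Whether the dermal share is free RNA or dermal expression was not tested.

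Lef1, the beta-catenin partner that is also a Wnt target, ranged from 0 to 9 UMIs with a median of 2 in Dkk4-positive cells and from 0 to 13 with the same median in the others. Its summed level was 226 against 201 CPM, a ratio of 1.13 (0.94 to 1.34). Thinned to 5000 UMIs, 69.6% and 60.2% of cells held it, a difference of 9.45 percentage points with an interval of -5.31 to 22.3. In dermal cells the share was 9.41%. Lef1 was thus common in both kinds of keratinocyte. Edar, the ectodysplasin receptor, was found in only 6 of 56 and 16 of 320 cells, with 9 and 18 UMIs, or 12.5 against 4.82 CPM (ratio 2.59, 1.03 to 6.07). Of Lef1, Bmp2 and Edar, 16 of 56 thinned Dkk4-positive cells held 2 and 2 held all 3, against 19 and 1 of 319 Dkk4 = 0 cells, while 13 and 118 held none. Shh, the Hedgehog ligand of established placodes, had 0 UMIs in the Dkk4-positive cells and 1 in the others. The label placode-fated goes beyond these data in that fate was not followed, and Lef1, unlike Bmp2, did not set the cells apart.

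Across the transcriptome the 2 sets of control keratinocytes were close. The comparison took the 5196 genes with at least 20 CPM in either set and a UMI in at least 5% of the cells of the higher set, with Dkk4, the gate genes, hemoglobin and mitochondrial genes left out. At least 1.5-fold higher in Dkk4-positive cells were 232 genes (4.46%), and at least 1.5-fold lower were 226 (4.35%), with a median log2 ratio of 0.01 over all. These counts have no error estimate. They changed with the filters and came in like numbers on both sides, so they are used only as the background for the lists below. A gene that reached 20 CPM in Dkk4-positive cells alone had to be higher there. The number of such genes is given with the count of a list, and likewise for lower genes under 20 CPM in Dkk4-positive cells. This limit also applies to most named genes, which were ranked by the ratio in these same cells. Of the 16 highest only Plk2, Dusp6 and Nfkbia reached 20 CPM in Dkk4 = 0 cells. Of the 12 lowest only Sostdc1 and Gas1 reached it in Dkk4-positive cells.

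**Figure D2:**
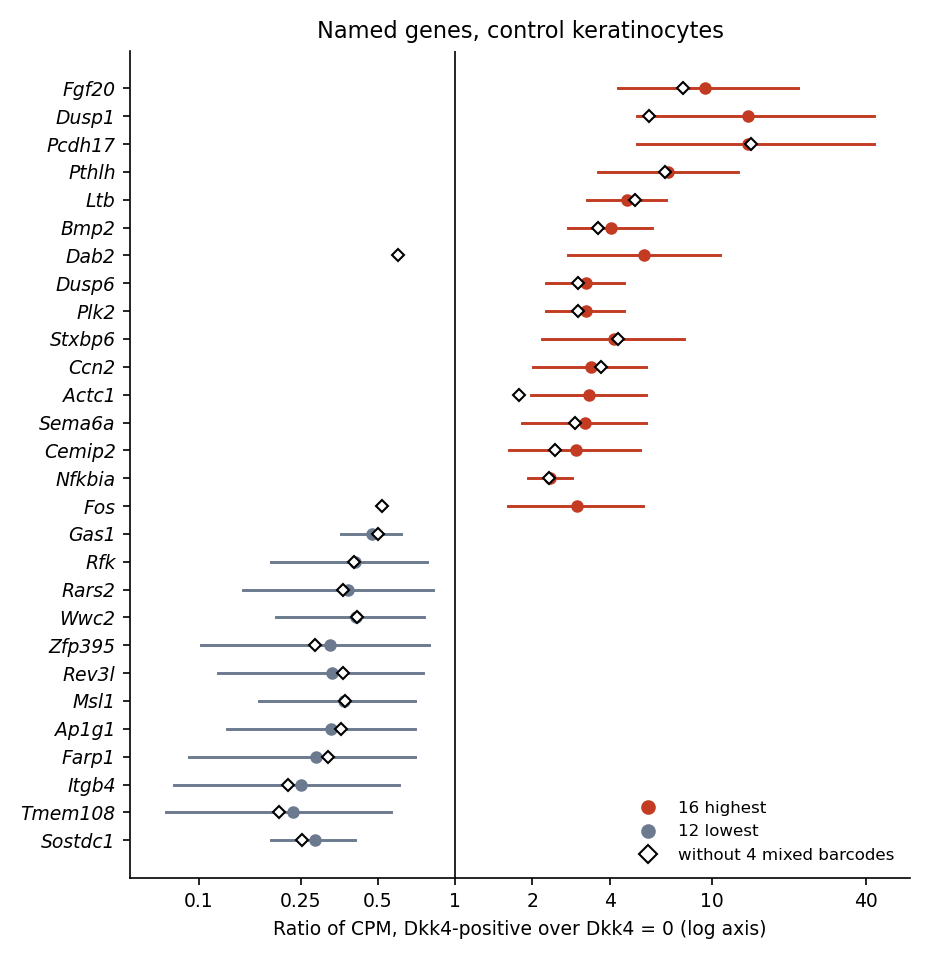
Ratio of CPM in Dkk4-positive over Dkk4 = 0 control keratinocytes (log axis) with exact 95% counting intervals for the 16 genes ranked highest and the 12 ranked lowest; diamonds give the ratio without the 4 mixed barcodes. Fgf20, Pcdh17, Pthlh, Ltb and Bmp2 keep ratios over 3 without them, while the diamonds of Dab2 and Fos lie below 1.

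Of the secreted factors among the 16 highest genes, Fgf20 (GRCm38 chr8:40279166-40308331, minus strand), the placode growth factor that acts on the dermal condensate, ranged from 0 to 3 UMIs with a median of 0, and 13 of 56 cells held it. In Dkk4 = 0 cells the range was 0 to 4, and 8 of 320 cells held it. The summed levels were 27.8 and 2.95 CPM, a ratio of 9.42 (4.30 to 21.8). Fgf20 was therefore rare outside the Dkk4-positive cells, though most Dkk4-positive cells had none detected. At 5000 UMIs the shares were 8.93% and 0.627%, with 0.0158% in dermal cells. Pthlh, which encodes parathyroid hormone-related protein, stood at 36.1 against 5.36 CPM (ratio 6.74, 3.62 to 12.7), with UMIs in 15 and 19 cells. Ccn2, a matricellular protein long called Ctgf, stood at 38.9 against 11.5 CPM (3.37, 2.02 to 5.56). None of these 3 genes exceeded 5 UMIs in a Dkk4-positive cell, so none rested on a single barcode.

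Ltb and Nfkbia were among the higher genes of the ectodysplasin and NF-kappaB pathway. Of 17 listed genes 7 were measured, and 5 of them were at least 1.5-fold higher and 0 lower, with a median log2 ratio of 0.86. Of the 5, 4 were under 20 CPM in Dkk4 = 0 cells and so had to be higher, and Nfkbia was the exception. Ltb (GRCm38 chr17:35194439-35196320, plus strand), the cytokine lymphotoxin beta, ranged from 0 to 22 UMIs in Dkk4-positive cells with a median of 0. It stood at 87.5 against 18.8 CPM, a ratio of 4.66 (3.27 to 6.65). Only 14 of the 56 cells held Ltb, and 1 cell held 22 of its 63 UMIs, the next highest cell 7. Without that cell the ratio was 3.09 (2.05 to 4.60). Nfkbia (GRCm38 chr12:55489410-55492647, minus strand), the inhibitor that NF-kappaB induces against itself, was broader. It ranged from 0 to 10 UMIs with a median of 2, against a median of 1 in Dkk4 = 0 cells, and 48 of 56 cells held it. Its level was 203 against 86.3 CPM, a ratio of 2.35 (1.92 to 2.87). The NF-kappaB subunits Relb (22.2 against 11.8 CPM, ratio 1.88, 0.99 to 3.41) and Nfkb1 (20.8 against 12.9 CPM, ratio 1.62, 0.84 to 2.94) had intervals that reach below 1. Fgf20, also in the placode and fibroblast growth factor lists, is the fifth and had the highest ratio of the 5, 9.42. The adaptor Edaradd (ratio 1.47, 0.83 to 2.48) and the receptor Tnfrsf19 (1.13, 0.86 to 1.48) were within 1.5-fold. Among genes too low to be measured, Rela had 4 and 55 UMIs and the ligand gene Eda 1 and 20. The totals were 720239 UMIs in Dkk4-positive and 3732609 in Dkk4 = 0 cells. In proportion to these totals, Rela and Eda were both lower in Dkk4-positive cells, the other way from the 5 higher genes.

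Promoter sequences of the highest genes were searched for binding motifs of both pathways. RefSeq promoters of build GRCm38.p6, 250 bases before to 50 after the start, were at hand for 11 of the 16 genes, 12 promoters in all. A TCF and LEF core motif, CTTTG followed by AA, AT, TA or TT on either strand, was in 0 of these 12, against 16.9% of all 32851 promoters in the table. The NF-kappaB consensus on either strand, a search added after the values were seen, was in the promoters of 4 of these genes (Ltb, Nfkbia, Actc1 and Fos), against 8.46% of all promoters. The higher values of Actc1 and Fos rest on mixed barcodes, as described below. The Ltb promoter (chr17:35194257-35194556, plus strand) and the Nfkbia promoter (chr12:55492598-55492897, minus strand) are shown because both genes were higher in the pathway list. Capitals mark the match, which reads as the consensus on the opposite strand. The match starts 87 bases before the RefSeq start of Ltb and 29 bases before that of Nfkbia. The RefSeq start of Ltb lies inside the gene span given above, which is from another annotation. The Edar promoter (chr10:58675647-58675946, minus strand), from a marker of the cells, holds a TCF and LEF core, in capitals, 233 bases before the start. Of the 4 promoters of Lef1, another marker, 1 holds such a core and the rest do not. A match is a description of the letters and not a binding site.
Ltb promoter: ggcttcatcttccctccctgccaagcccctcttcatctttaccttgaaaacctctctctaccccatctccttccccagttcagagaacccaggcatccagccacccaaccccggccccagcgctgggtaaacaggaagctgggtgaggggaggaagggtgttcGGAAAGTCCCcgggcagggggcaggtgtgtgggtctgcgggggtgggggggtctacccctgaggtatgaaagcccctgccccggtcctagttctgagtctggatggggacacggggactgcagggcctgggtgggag
Nfkbia promoter: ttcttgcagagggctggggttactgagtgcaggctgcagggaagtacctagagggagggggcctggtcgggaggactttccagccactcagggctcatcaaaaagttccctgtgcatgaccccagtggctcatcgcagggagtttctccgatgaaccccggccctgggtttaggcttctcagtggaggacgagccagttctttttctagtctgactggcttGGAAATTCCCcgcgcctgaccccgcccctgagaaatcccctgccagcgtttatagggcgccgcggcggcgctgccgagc
Edar promoter: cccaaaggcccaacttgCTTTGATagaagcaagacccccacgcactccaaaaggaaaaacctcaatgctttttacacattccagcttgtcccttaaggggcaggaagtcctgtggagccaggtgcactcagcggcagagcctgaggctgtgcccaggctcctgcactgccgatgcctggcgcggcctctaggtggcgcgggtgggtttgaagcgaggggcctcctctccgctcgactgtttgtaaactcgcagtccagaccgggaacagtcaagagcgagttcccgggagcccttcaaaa

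Dusp6, Spry2 and Etv5, which fibroblast growth factor signalling induces, were higher beside Fgf20. Of 21 listed genes 9 were measured, with 4 at least 1.5-fold higher, 2 of those under 20 CPM in Dkk4 = 0 cells, and 1 lower; the median log2 ratio was 0.34. Dusp6, a phosphatase that switches off ERK and is induced by it, ranged from 0 to 7 UMIs and was found in 27 of 56 against 66 of 320 cells. Its level was 77.8 against 24.1 CPM, a ratio of 3.22 (2.27 to 4.55). Spry2, a feedback inhibitor, stood at 49.98 against 27.6 CPM (1.81, 1.20 to 2.67) and the transcription factor Etv5 at 23.6 against 10.4 CPM (2.26, 1.20 to 4.09). Etv4, the relative of Etv5, was too low to be measured, with 9 UMIs in 8 cells against 2 UMIs in 2 cells (ratio 23.3, 4.83 to 222). The receptor Fgfr2 went the other way, at 93.0 against 154 CPM (0.60, 0.46 to 0.78). Fgfbp1, Spry1, Spred1 and Spred2 were within 1.5-fold.

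Wnt pathway genes split by gene rather than moving as a group. Of 19 listed targets 8 were measured, with 3 higher, 2 of them under 20 CPM in Dkk4 = 0 cells, 0 lower and a median log2 ratio of 0.22. These 3 are feedback inhibitors of the pathway: Znrf3 at 36.1 against 21.2 CPM (1.71, 1.05 to 2.69), Rnf43 at 26.4 against 16.6 CPM (1.59, 0.90 to 2.69) and Apcdd1 at 24.99 against 15 CPM (1.67, 0.92 to 2.88). Axin2, the most used target, had 22 UMIs in 18 cells and stood at 30.5 against 25.2 CPM (1.21, 0.73 to 1.95). Of the ligand list 7 of 19 genes were measured, with a median of -0.24. Wnt10b, a ligand of placodes, was higher at 76.4 against 48.2 CPM (1.58, 1.15 to 2.15), and Wnt4 was lower at 143 against 265 CPM (0.54, 0.44 to 0.66). Wnt10a (0.84, 0.55 to 1.26), Wnt3 (1.05, 0.81 to 1.34) and Wnt6 (0.71, 0.60 to 0.83) were within 1.5-fold.

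Among Wnt receptors and cofactors, 10 of 31 were measured, with 1 higher, under 20 CPM in Dkk4 = 0 cells, 1 lower and a median of -0.09. Fzd2 was lower (33.3 against 63.8 CPM, ratio 0.52, 0.33 to 0.80) and Lrp4, which limits Wnt signalling together with Sostdc1, was higher (23.6 against 13.4 CPM, ratio 1.76, 0.95 to 3.11), and 2 receptor genes were higher without the mixed barcodes. Among 18 intracellular components 10 were measured, with 1 higher, under 20 CPM in Dkk4 = 0 cells, 2 lower, 1 of them under 20 CPM in Dkk4-positive cells, and a median of 0.03. The co-repressor Tle1 was higher (2.42, 1.37 to 4.15), its relative Tle3 was lower at 12.5 against 23.6 CPM, and Tcf7l2 was lower (0.63, 0.38 to 0.99). Ctnnb1, which encodes beta-catenin, was detected in all 56 cells at 1 to 21 UMIs and differed little, at 623 against 529 CPM (1.18, 1.06 to 1.31).

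Sostdc1 (GRCm38 chr12:36314139-36318452, plus strand), a secreted inhibitor of BMP and Wnt signals, was the gene ranked lowest. It ranged from 0 to 6 UMIs with a median of 0 in Dkk4-positive cells, and from 0 to 11 with a median of 1 in the others. The levels were 43.0 against 152 CPM, a ratio of 0.28 (0.19 to 0.41), and UMIs were found in 21 of 56 and 203 of 320 cells. At 5000 UMIs the shares were 16.1% and 45.5%, and 17.3% in dermal cells, and whether the dermal share is free RNA was not tested. In the BMP and TGF-beta list 14 of 31 genes were measured, with 2 higher, 4 lower, 2 of these under 20 CPM in Dkk4-positive cells, and a median of -0.08. The higher ones were Bmp2 and Ccn2, both under 20 CPM in Dkk4 = 0 cells. The BMP target Id1 (29.2 against 64.0 CPM, ratio 0.46, 0.28 to 0.71), the related Id2 (11.1 against 25.2 CPM, ratio 0.44, 0.19 to 0.91) and the receptor Bmpr2 (18.1 against 30.5 CPM, ratio 0.59, 0.31 to 1.05) were lower beside Sostdc1. Id3, also a BMP target, was not (0.97, 0.75 to 1.24). Gas1, a Hedgehog co-receptor, ranged from 0 to 6 UMIs with a median of 1, against 0 to 11 with a median of 2, and stood at 87.5 against 185 CPM (0.47, 0.36 to 0.61). Only 3 of 14 Hedgehog genes were measured, with 1 higher, Disp1, which was under 20 CPM in Dkk4 = 0 cells, and 1 lower, Gas1, and the targets Gli1 and Ptch1 had 1 and 4 UMIs in the Dkk4-positive cells.

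**Figure D3:**
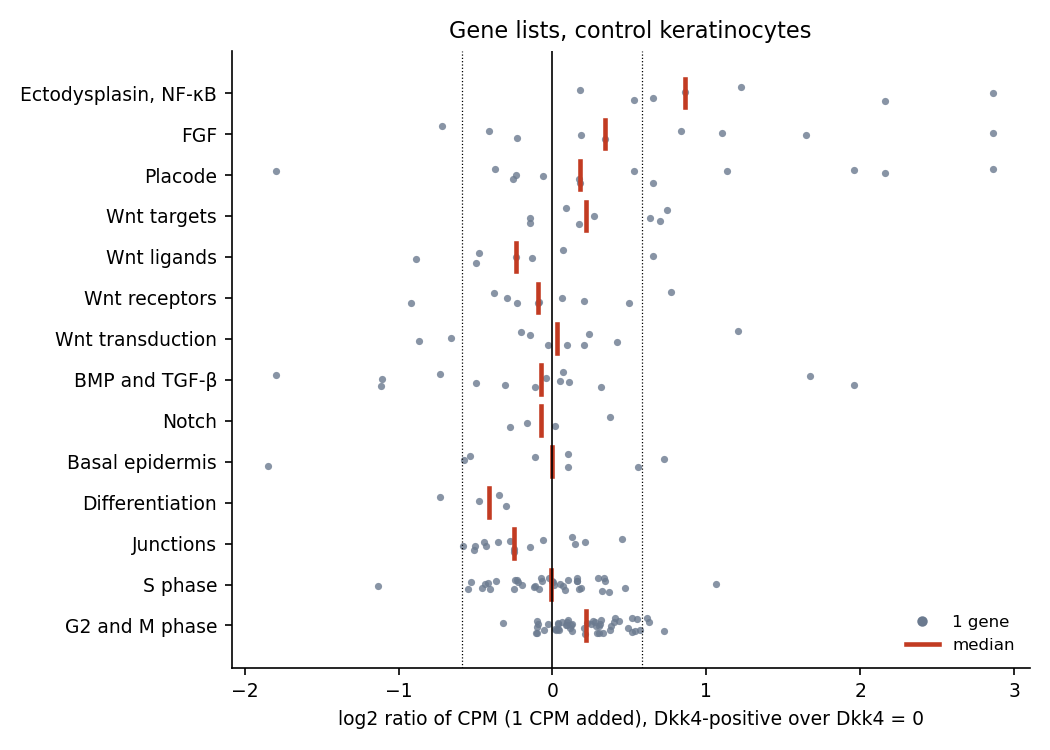
Each grey point is the log2 ratio of CPM (1 CPM added) in Dkk4-positive over Dkk4 = 0 control keratinocytes of 1 measured gene, by gene list; red bars are medians and dotted lines mark 1.5-fold. The ectodysplasin and NF-kappaB list has a median of 0.86, but 4 of its 5 higher genes were under 20 CPM in Dkk4 = 0 cells. Those 4 had to be higher to be measured. Lists of junctions, basal epidermis and Notch lie between the dotted lines apart from 2 basal genes.

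In the placode list, 13 of 20 genes were measured, with 5 higher, 1 lower and a median log2 ratio of 0.18. The 5 were Fgf20, Ltb, Bmp2, Wnt10b and Sox21, an epithelial transcription factor at 30.5 against 13.4 CPM (2.28, 1.31 to 3.84), and 4 of them were under 20 CPM in Dkk4 = 0 cells. Without the mixed barcodes 6 were higher. The lower gene was Sostdc1. Pdgfa, the growth factor that placodes send to the dermis, was within 1.5-fold at 569 against 679 CPM (0.84, 0.75 to 0.93), as were Cdh3, the placode cadherin (0.96, 0.70 to 1.29), and Ctnnal1. Below the level filter, the adhesion molecule Madcam1 had 12 UMIs in 9 cells against 11 UMIs in 9 cells (ratio 5.65, 2.28 to 14.1), and Foxi3 had 3 UMIs against 0. The transcription factor Lhx2 had 0 against 1 UMI.

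Of the other highest genes, 5 had little or no link to these lists. Pcdh17, a protocadherin of cell adhesion, stood at 22.2 against 1.61 CPM (13.8, 5.14 to 43.1), from 16 UMIs in 12 cells and 6 UMIs in 6 cells. Plk2, a kinase induced in early cell cycle and by stress, stood at 77.8 against 24.1 CPM (3.22, 2.27 to 4.55). Stxbp6 (4.15, 2.18 to 7.77), Sema6a, a membrane-bound semaphorin (3.22, 1.83 to 5.57), and Cemip2, a hyaluronidase of the cell surface (2.96, 1.62 to 5.27), were spread over 13, 17 and 16 cells. Without the mixed barcodes these 5 genes kept ratios of 2.44 to 14.3. All but Plk2 were under 20 CPM in Dkk4 = 0 cells and so had to be higher.

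The remaining 4 highest genes rested on single barcodes. Dab2 had 18 of its 20 UMIs in 1 cell, Actc1, a muscle actin, 22 of 27, Fos 15 of 19, and Dusp1 9 of 16. Without the mixed barcodes the ratios went from 5.46 to 0.60 for Dab2, from 3.33 to 1.78 for Actc1, from 2.98 to 0.52 for Fos and from 13.8 to 5.70 (1.52 to 21.3) for Dusp1. The immediate-early and stress list went the same way. Of 16 genes 7 were measured and 5 were higher, 4 of these under 20 CPM in Dkk4 = 0 cells, with a median log2 ratio of 0.93. Without the mixed barcodes 4 were measured and 2 were higher, with a median of 0.57.

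Itgb4, a subunit of the hemidesmosome integrin, was the lowest gene of the basal epidermis list, with 5 UMIs in 5 cells, or 6.94 against 27.6 CPM (0.25, 0.08 to 0.61). Its partner Itga6 did not follow (1.08, 0.77 to 1.47). Of 16 basal genes 8 were measured, with 1 higher, 1 lower (Itgb4, under 20 CPM in Dkk4-positive cells) and a median log2 ratio of 0.00, and 2 higher and 2 lower without the mixed barcodes. The higher one was Krt17, an early appendage keratin, at 75.0 against 45.0 CPM (1.67, 1.20 to 2.28). Trp63, the master regulator of stratified epithelia, was within 1.5-fold (0.92, 0.74 to 1.15). Among the gate keratins, given as description, Krt15 stood at 332 against 604 CPM, Krt5 at 455 against 601 CPM and Krt14 at 1397 against 1451 CPM. Tmem108 was lower too, at 6.94 against 29.7 CPM (0.23, 0.07 to 0.56). The other 8 of the 12 lowest genes, Farp1, Ap1g1, Msl1, Rev3l, Zfp395, Wwc2, Rars2 and Rfk, had ratios of 0.29 to 0.41. Each of the 8 had only 5 to 11 UMIs in Dkk4-positive cells. Like Tmem108, they were under 20 CPM there and so had to be lower.

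Differentiation genes were lower in sum, and adhesion and motility genes differed little. Of 18 differentiation genes 4 were measured, with 0 higher, 1 lower and a median of -0.41; the lower one was Sfn, 14-3-3 sigma (0.60, 0.47 to 0.75). The summed level of the list was 1447 against 1926 CPM, a ratio of 0.75 (0.70 to 0.80). Per cell the medians were close, at 18 and 19 UMIs, while the highest counts were 34 and 207. The part of the highest Dkk4 = 0 cells in the summed ratio was not tested. Krt10 was held by 19.6% of Dkk4-positive and 22.6% of Dkk4 = 0 cells at 5000 UMIs, against 14.2% of dermal cells. Of 23 junction genes 15 were measured, of 28 cytoskeleton and motility genes 26, and of 18 Notch pathway genes 4, and 0 of these were past 1.5-fold in either direction. Their medians were -0.25, -0.01 and -0.08. Cdh1, E-cadherin, stood at 15.3 against 21.2 CPM (0.72, 0.35 to 1.36). Among 38 genes for other signals to the dermis 13 were measured and 0 were past the fold, or 1, lower, without the mixed barcodes; Cxcl14, the most abundant, stood at 2446 against 3036 CPM (0.81, 0.77 to 0.85). Of 34 epithelial transcription factors 16 were measured, with Sox21 higher and Id2, Tcf7l2 and Barx2 lower; Sox21 was under 20 CPM in Dkk4 = 0 cells and Id2 in Dkk4-positive cells.

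Cycling genes were held by a like share of both sets. At 5000 UMIs, 85.7% of Dkk4-positive cells (73.8 to 93.6) and 84.0% of Dkk4 = 0 cells (79.5 to 87.9) held a UMI of at least 1 of 8 cycling genes, a difference of 1.70 percentage points (-10.8 to 10.8), beside 60.8% of dermal cells. The S phase list (38 of 42 genes measured) had a median log2 ratio of -0.01, with 1 gene higher, the helicase Blm, and 1 lower, Dtl, or 4 lower without the mixed barcodes. The G2 and M phase list (50 of 52 measured) had a median of 0.22 with 3 higher and 0 lower, or 2 and 0 without the mixed barcodes, and its summed level was 9447 against 8640 CPM. Of 14 measured regulators 3 were higher, 1 of them under 20 CPM in Dkk4 = 0 cells: the growth arrest genes Gadd45g at 99.97 against 53.1 CPM (1.88, 1.42 to 2.48), Btg1 at 218 against 127 CPM (1.72, 1.43 to 2.06) and Btg2 (1.66, 0.90 to 2.92). Ccne1, cyclin E1, was lower at 19.4 against 32.9 CPM (0.59, 0.31 to 1.03), under 20 CPM in Dkk4-positive cells. Cdkn1c, a cyclin-dependent kinase inhibitor, was 1.34-fold higher with all cells and at a ratio of 0.60 without the mixed barcodes, since 1 cell held 99 of its 167 UMIs.

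Cells with more Dkk4 differed further in some of these genes and not in others. The median total was 12584.5 UMIs in cells with 1 Dkk4 UMI and 9372 in cells with 10 or more, so depth did not grow with Dkk4. Ltb stood at 6.72 CPM (exact Poisson interval 0.81 to 24.3) in the 22 cells with 1 Dkk4 UMI, no higher than the 18.8 CPM (14.6 to 23.7) of Dkk4 = 0 cells. It stood at 49.9 CPM (25.8 to 87.2) in the 18 cells with 2 to 4, at 275 CPM (190 to 387) in the 10 cells with 5 to 9 and at 256 CPM (146 to 415) in the 6 cells with 10 or more. Nfkbia ran through 86.3, 141, 187, 309 and 352 CPM over the ranges 0, 1, 2 to 4, 5 to 9 and 10 or more. Dusp6 ran through 24.1, 30.3, 95.7, 108 and 176 CPM. Bmp2 was already at 60.5 CPM (35.9 to 95.6) in cells with 1 Dkk4 UMI and at 112 CPM (45.0 to 231) at the top, intervals that overlap. Sostdc1 stood at 60.5 CPM (35.9 to 95.6) with 1 Dkk4 UMI, below the 152 CPM (140 to 165) of Dkk4 = 0 cells, and at 25.03 to 48.0 CPM above that. Lef1 showed no order, at 198, 283, 150 and 288 CPM. Between 0 and 1 Dkk4 UMI the counting intervals of Bmp2, Fgf20, Nfkbia and Sostdc1 did not overlap. Those of Ltb and Dusp6 did not overlap between 1 and 2 to 4, nor those of Ltb between 2 to 4 and 5 to 9. The latter rests on 1 cell with 5 Dkk4 UMIs, which held 22 of the 33 Ltb UMIs of its range; without it Ltb stood at 102 CPM (50.7 to 182), which overlaps the range of 2 to 4. All other neighbouring ranges of these 6 genes and of Lef1 overlapped. The mixed barcodes were kept in these ranges, 1 in the range of 1 and 2 in the range of 2 to 4. The latter 2 held 6 and 4 of the 19 Bmp2 UMIs of their range, and 3 and 2 of its 6 Fgf20 UMIs. The mixed barcode in the range of 1 held 6 of the 18 Sostdc1 UMIs there. Over all Dkk4-positive cells, Dusp6 went from 56 to 46 UMIs without the mixed barcodes. Their part in the steps between ranges, that of Dusp6 among them, was not tested.

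**Figure D4:**
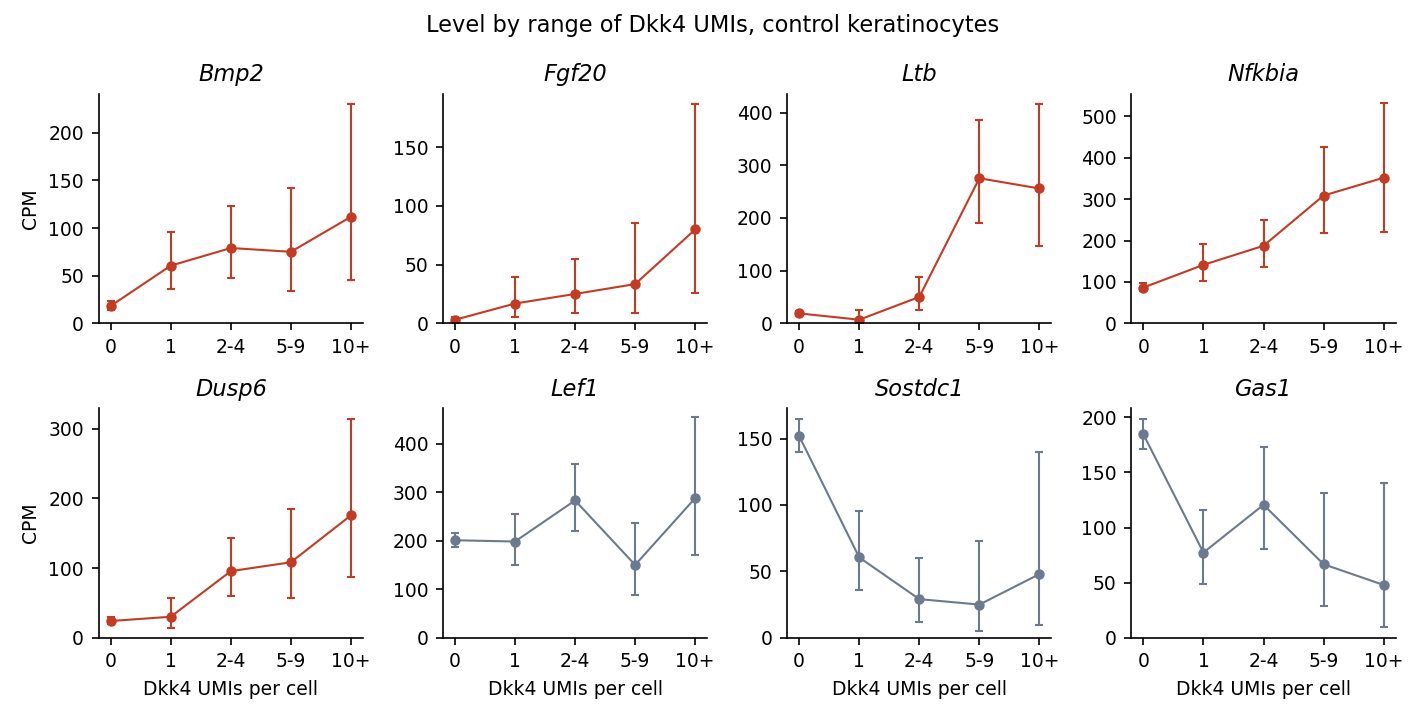
CPM (vertical axes) of 8 genes in control gated keratinocytes by range of Dkk4 UMIs per cell (horizontal axes; 320, 22, 18, 10 and 6 cells), with exact Poisson 95% intervals. Nfkbia and Dusp6 step up from left to right, Ltb is highest in the ranges of 5 to 9, where 1 cell holds 22 of 33 UMIs, and 10 or more, Sostdc1 and Gas1 are highest at 0, and Lef1 has no order.

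Cells the gate did not take, with 5 to 19 keratin UMIs and the other limits the same, gave the same comparison in cells the rule did not use, within the same library. Of these 183 control cells 30 were Dkk4-positive (16.4%, 11.3 to 22.6). Fgf20 stood at 52.8 against 0.80 CPM there, Ltb at 84.4 against 12.04 CPM, Bmp2 at 56.3 against 32.1 CPM, Dusp6 at 59.8 against 16.9 CPM and Nfkbia at 179 against 120 CPM. Sostdc1 stood at 28.1 against 134 CPM, Gas1 at 70.3 against 155 CPM and Wnt4 at 120 against 257 CPM. Gadd45g, at 306 against 51.4 CPM, differed more than in the gate. Of the 16 highest genes 11 lay on the same side and of the 12 lowest 10. Fos, Dab2, Actc1, Dusp1 and Sema6a did not, and Ap1g1 and Rars2 did not. The share of all measured genes that kept their side is not given, so these counts are description only. Several genes were closer between the sets there: the ratio was 1.75 (0.92 to 3.20) for Bmp2, 1.49 (1.06 to 2.06) for Nfkbia, 1.28 (0.61 to 2.49) for Plk2, 1.19 (0.21 to 4.52) for Stxbp6 and 1.17 (0.28 to 3.67) for Pthlh. Those of Ltb, 7.01 (3.53 to 14.4), Dusp6, 3.55 (1.76 to 7.06), and Sostdc1, 0.21 (0.09 to 0.42), kept to one side of 1.

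The mutant library held no Dkk4-positive keratinocyte to compare, so the level over its 994 gated cells is set beside the 2 control sets. It is 1 library against 1 with no test, and the control Dkk4 = 0 cells are the same in each line. Fgf20 stood at 27.8 CPM in control Dkk4-positive cells, 2.95 CPM in control Dkk4 = 0 cells and 0 UMIs in the mutant, where 3 counts would make 0.335 CPM. For Bmp2 the 3 levels were 73.6, 18.2 and 2.46 CPM, for Ltb 87.5, 18.8 and 4.70 CPM, for Pthlh 36.1, 5.36 and 1.12 CPM, and for Pcdh17 22.2, 1.61 and 0.11 CPM. Wnt10b stood at 76.4, 48.2 and 13.9 CPM. In these 6 ligand and adhesion genes the mutant keratinocytes were below the control cells without Dkk4. Lef1 stood at 226, 201 and 48.4 CPM, so that the control sets differed little and the mutant was lower. Gadd45g had 99.97, 53.1 and 14.98 CPM.

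Nfkbia had 203, 86.3 and 63.8 CPM and Dusp6 77.8, 24.1 and 15.8 CPM. Etv4 did not follow, at 12.5, 0.54 and 10.8 CPM. Sostdc1 ran the opposite way, at 43.0, 152 and 379 CPM, as did Gas1 at 87.5, 185 and 352 CPM and Wnt4 at 143, 265 and 390 CPM. At 5000 UMIs per cell, 70.0% of mutant gated cells held Sostdc1, 0.819% held Bmp2 and 18.8% held Lef1. The mutant cells were shallower before thinning, and their hemoglobin UMIs per cell had a median of 7, against 2 in the control Dkk4-positive cells. The part of this difference in the values above was not tested.

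**Figure D5:**
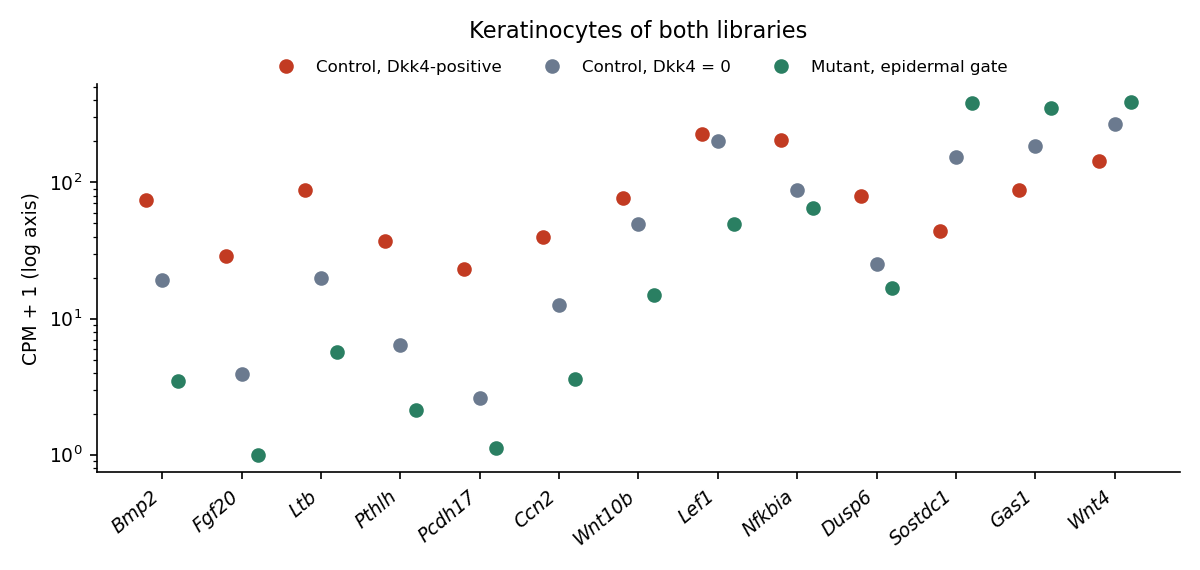
CPM with 1 added (log axis) of 13 genes summed over control Dkk4-positive keratinocytes (56 cells), control Dkk4 = 0 keratinocytes (320 cells) and mutant keratinocytes under the same gate (994 cells). From Bmp2 to Dusp6 the mutant point is the lowest of the 3, and for Sostdc1, Gas1 and Wnt4 it is the highest.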

How the data were processed

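The deposited matrices hold raw UMI counts per gene and barcode, 32286 features, 1 matrix for each of the 2 libraries. Per the submitters' processing notes the authors used Cell Ranger 5.0.1 and mm10. The genes to be compared, the cells and all gene lists were chosen with earlier results of these data known. Counts of the cells of a set were summed and scaled to CPM without Dkk4, and log2 ratios had 1 CPM added. With 1 library per group no test was possible and no p-value was computed. Ratios carry an exact conditional binomial, CPM an exact Poisson and shares a Clopper-Pearson 95% interval, all for counting error only, and a difference between shares an interval built from both. Named genes are the 16 highest and 12 lowest by log2 ratio with 5 CPM added, beside genes of the 31 lists. For shares each cell was thinned to 5000 UMIs with a fixed seed, and the average over all draws was computed exactly. Scrublet (scanpy 1.11.5, expected rate 8%) called 586 of 12028 control and 261 of 8480 mutant cells doublets, 3 of them Dkk4-positive cells, and none were removed. Planned comparisons with Dkk4-positive mutant cells could not be made, as there were 0. Coordinates are from GENCODE M21. Python 3.11.15, numpy 2.4.6, scipy 1.17.1 and pandas 2.3.3 were used, and the code was tested on simulated data. Alternatives covered filters, scaling, thresholds, thinning and left-out cells.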

Additional observations from a re-analysis of the deposited data

How the results depend on the processing

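No paired analysis was possible because each group has 1 library. Over 19 alternatives, the results other than single genes stayed within the stated limits in 123 of 155 settings and moved in 32. The sign changed in 9 settings: the S phase median (0.030 with equal weight of each cell, 0.084 with at least 5 Dkk4 UMIs), the Edar share difference (-1.25 points at 2000 UMIs), the cycling share difference (-1.79 at 2000 UMIs, -1.66 with at least 2 Dkk4 UMIs, -3.64 with at least 5 keratin UMIs), and 3 list medians given below. Of 476 settings of the 28 named genes, 402 stayed within the counting interval, 60 moved and 14 reversed. A minimum of 10 CPM or of 50 CPM cannot change the ratio of a single gene, so those settings are among the 402 by construction. The numbers of genes past 1.5-fold, 232 higher and 226 lower, moved with the number of cells and UMIs used: 638 and 614 after thinning to 5000 UMIs, 444 and 419 with at least 2 Dkk4 UMIs (34 cells), 903 and 766 with at least 5 (16 cells), 900 and 834 when cells were split by Dkk4 after thinning, 677 and 410 in cells with 0 Krt1 and Krt10 UMIs, 1493 and 1453 in cells without UMIs of the 8 cycling genes (6 against 37 cells), and 636 and 728 in cells with 5 to 19 keratin UMIs. They were 513 and 558 at a minimum of 10 CPM, 43 and 36 at 50 CPM, and 105 and 96 with 10 CPM added. With at least 5 keratin UMIs 152 were higher. The G2 and M phase median of 0.22 became 0.10 with at least 2 Dkk4 UMIs, -0.037 on splitting after thinning, 0.61 without Krt1 and Krt10 UMIs, 0.35 without cycling UMIs, 0.088 with at least 5 and -0.19 with 5 to 19 keratin UMIs. The S phase median of -0.01 became -0.27, -0.28 and -0.29 in the settings without Krt1 and Krt10, without cycling UMIs and with 5 to 19 keratin UMIs. The differentiation median of -0.41 became 0.13 without cycling UMIs. The difference in the share of cells with Bmp2 was 30.6 percentage points in 1 draw at 5000 UMIs, where the shares averaged over all draws were 28.8% and 8.0%. It was 7.59 points in 1 draw at 2000 UMIs. The cause of these shifts was not tested.

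Reversed log2 ratios were those of Fos (-3.30 with at least 5 Dkk4 UMIs, -0.75 without Scrublet doublets, -2.06 without cycling UMIs, -0.82 without the mixed barcodes, -1.12 with 5 to 19 keratin UMIs) and Dab2 (-0.63, -4.08, -0.59 and -0.85 in the last 4 of these settings). With 5 to 19 keratin UMIs, Dusp1 was at -0.85, Actc1 at -2.73, Sema6a at -0.067, Ap1g1 at 0.37 and Rars2 at 0.52. The settings of at least 5 and of 5 to 19 keratin UMIs and the removal of mixed barcodes, or of the cell with the most Ltb, were chosen after seeing the data. The planned limit of at least 50 keratin UMIs left 1 Dkk4-positive cell, and its values are not given because a minimum of 5 cells was set after they had been seen. The 56 cells come from 1 library, so depth and the number of embryos limit every value.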
